A study of Zea mays with 15 samples.

Results

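Among the genomic sites bound by 14 maize AUXIN RESPONSE FACTORS (ARFs), 2296 carried a peak of each of the 7 clade B ARFs profiled and a peak of no clade A ARF. They were found by merging the peaks of all 14 ARFs wherever peaks overlapped by at least 1 bp, and by keeping the merged sites with ARF10, ARF13 and ARF25, with ARF14, ARF36 and ARF39, with ARF7, and without the other 7. The 2296 sites were 1.85% (95% interval 1.77 to 1.92) of all 124379 merged sites. They made up 5.41% of the 42444 sites that held clade B peaks only, and 38.3% of the 5998 sites that held all 7 clade B ARFs. The sites were chosen by the presence and absence of called peaks, so their number and the strength of the peaks in them are given as a description.

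The binding was measured by DAP-seq, in which a purified transcription factor is incubated with fragments of naked genomic DNA and the retained fragments are sequenced. The DNA came from B73, an inbred maize line, and was extracted from field-grown ears 1 to 3 cm long. Each ARF was fused to GST, purified from bacteria and assayed in 1 library, and a GST-HALO protein made in a wheat germ system served as the negative control of the peak calling. Because there was 1 library per ARF, no test between ARFs was possible, and every difference between ARFs is a difference between single peak lists. Intervals on shares are 95% Wilson intervals and those on differences 95% Newcombe intervals. They cover counting error over sites only, since each ARF had 1 library and sites are not replicates. In addition, PCR copies carried no molecular identifiers, and sites that lie close together are not independent.

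ARFs are the transcription factors through which auxin, a hormone that patterns roots, leaves and inflorescences, changes gene expression. They bind DNA through a domain that dimerizes, and their elements share the core TGTC. Members of clade A are known as activators and members of clade B as repressors, mainly from reporter assays. Both clades can meet the same element, and a site taken by every clade B protein and by no clade A protein is one where the lists of the 2 clades part completely. The clades come from the phylogeny of the study, as do the subgroups used here. ARF10 (GRMZM2G338259), ARF13 (GRMZM2G378580) and ARF25 (GRMZM2G116557) form one subgroup and are called the ARF10 group. ARF14 (GRMZM2G137413), ARF36 (GRMZM2G702026) and ARF39 (GRMZM2G017187) form another, called the ARF14 group. ARF7 (GRMZM2G475263) stands alone. The 7 clade A ARFs were ARF34, ARF16, ARF27, ARF4, ARF29, ARF35 and ARF18.

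The clade B lists differed in length, from 10174 peaks for ARF39 to 38272 for ARF25, and the depth behind each of them is not given in the labels. The shortest list therefore had the largest part of its peaks in these sites. Of the ARF39 peaks, 22.7% (21.9 to 23.5) lay in a site shared by all of clade B alone. The share was 12.6% for ARF13, 10.8% for ARF36, 8.72% for ARF14, 8.61% for ARF7, 7.02% for ARF10 and 6.28% for ARF25. Most sites were compact. The median width was 217 bp, the widest reached 609 bp, and 1857 sites (80.9%) held exactly 7 peaks, 1 per ARF.

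GEM, the peak caller of the study, assigns each peak a signal, the read depth of the binding event. Signals are not scaled between libraries, so the strength of a peak is also given as its rank within its own list, from 0 for the weakest to 100 for the strongest peak. The rank depends on the length of the list, since a site shared by all 7 sits lower in a short list than in a long one. The median rank was 90.6 for ARF25, 89.7 for ARF10 and 83.2 for ARF13. In the ARF14 group ARF14 had a median rank of 84.6 and ARF36 one of 82.3, whereas ARF39, the shortest list, had 50.6, the middle of its list. ARF7 lay between, at 72.6.

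By the number of stronger peaks, and in lists cut to equal size, ARF7 and not ARF39 came last. The number of stronger peaks in the same list had a median of 8040 for ARF7, against 5024.5 for ARF39, 4319 for ARF14, 3835 for ARF36, 3612.5 for ARF25, 3460.5 for ARF10 and 3081.5 for ARF13. ARF7 had the most stronger peaks of the 7 lists at 1423 of the 2296 sites (62.0%) and ARF39 at 303 (13.2%), although by rank ARF39 was the lowest list at 1637 sites (71.3%). This number cannot exceed the length of a list, so it could rise further in ARF7 (29361 peaks) than in ARF39 (10174). Only lists of equal size take list length out. With every list reduced to its 7520 strongest peaks, clade A lists included, the rule was applied again and gave 1722 sites. A clade A peak lost in the cut no longer kept a site out, so the 1722 sites can include some outside the 2296. Median ranks there were 80.7 for ARF13, 78.8 for ARF25, 78.1 for ARF10, 78.1 for ARF36, 75.7 for ARF14, 73.7 for ARF39 and 56.9 for ARF7. At these newly chosen sites ARF7 thus stood apart from 6 lists that lay close together. These counts were added after the data were seen.

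The signals themselves spread widely within every list. ARF25 signals at the sites ran from 25.2 to 446.1 with a median of 162, against a median of 47.2 over its whole list. ARF14 signals ran from 22.7 to 742 with a median of 148 (whole list 51), and ARF10 signals from 20.9 to 334 with a median of 121 (whole list 44.9). ARF13 had a median of 114 (whole list 52) and ARF36 one of 83 (whole list 43). In these 5 lists the median signal at the sites was well above that of the list they came from. ARF39 signals ran from 19 to 291, and their median of 53 was close to the 52.3 of the whole ARF39 list. ARF7 signals ran from 20 to 265 with a median of 58.85 (whole list 41.4).

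**Figure D1:**
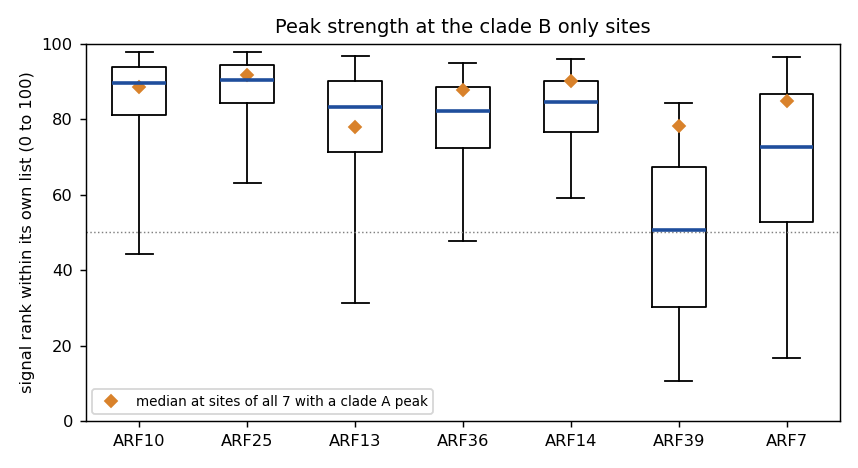
Within-list signal rank (0 to 100, y axis) of the strongest peak of each clade B ARF (x axis) at the 2296 sites. Boxes span the quartiles with the median as a blue line, whiskers run from the 5th to the 95th percentile of sites, orange diamonds mark the median rank at the 3702 sites that also hold a clade A peak, and the dotted line marks the middle of a list. ARF39, the shortest list, has the lowest median, 50.6, which lies below its diamond at 78.3. Ranks depend on list length and are best compared within a list.

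Compared with the 3702 sites that held all 7 clade B ARFs together with at least 1 clade A ARF, the sites without clade A differed most for ARF39 and ARF7. The median ARF39 rank was 50.6 without and 78.3 with a clade A peak, and the median ARF7 rank was 72.6 without and 85.0 with one. ARF13 ran the other way, with a median rank of 83.2 without and 78.0 with clade A, and ARF10 was nearly level at 89.7 and 88.6. The values belong to peaks that entered the rule and were not tested.

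The strongest site over all 7 lists lay on chromosome 6 from 36269921 to 36270140 (B73 RefGen version 3, 1-based), with a mean rank of 98.97. Its signals were 195.2 for ARF7, 255 for ARF10, 270 for ARF13, 406 for ARF25, 721 for ARF14, 276 for ARF36 and 291 for ARF39, the last 2 being the highest signals of these lists at any of the sites. The next by mean rank were on chromosome 2 from 211332389 to 211332598 (98.2), chromosome 10 from 144851668 to 144851877 (98.2), chromosome 6 from 119931624 to 119931834 (97.8) and chromosome 2 from 163828366 to 163828575 (97.7). ARF39 had its lowest rank of the 5 sites, 89.2, at the last of these. All 7 ranks were at least 90 at 16 sites (0.697%) and at least 50 at 969 sites (42.2%), counts that the short ARF39 list holds down. With lists of equal size, where the rule chose the sites anew, they were 36 and 721 of 1722 sites.

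At the other end, the lowest mean rank, 17.1, was found on chromosome 1 from 50206534 to 50206773, where 6 of the 7 signals were 34 or less and ARF25 had 53. The sites on chromosome 6 from 97634406 to 97634644 (mean rank 20.2) and on chromosome 3 from 222889171 to 222889416 (22.3) followed, again with ARF25 as the list of highest rank. The difference between the highest and the lowest rank of a site had a median of 47.3. The 3 sites with the largest difference shared one pattern, a strong ARF7 and ARF14 peak beside weak peaks of other lists. On chromosome 8 from 81963221 to 81963582 the ARF7 signal was 144.4 (rank 97.5) and the ARF14 signal 169 (rank 87.0), while ARF39 had 22.8 (rank 0.983). On chromosome 3 from 65669905 to 65670154 and on chromosome 2 from 105336622 to 105336861 the ARF7 signal was 155 (rank 98.1) at both, and the ARF13 signals were 24 and 26 (ranks 3.45 and 5.37).

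Across the 2296 sites, signals ran together within the subgroups and less so between them. Spearman's rho between pairs of lists was 0.84 to 0.91 within the ARF10 group and 0.68 to 0.74 within the ARF14 group. Between the ARF10 and the ARF14 groups it was 0.37 to 0.63 over 9 pairs, with the highest values for ARF36. ARF7 had rho values of 0.38 to 0.40 with the ARF10 group and 0.43 to 0.60 with the ARF14 group, the highest with ARF14. The median over all 21 pairs was 0.57 at these sites and 0.75 at the 3702 sites with a clade A peak. These correlations are across sites, which are not replicates, and the peaks of a list share one library.

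**Figure D2:**
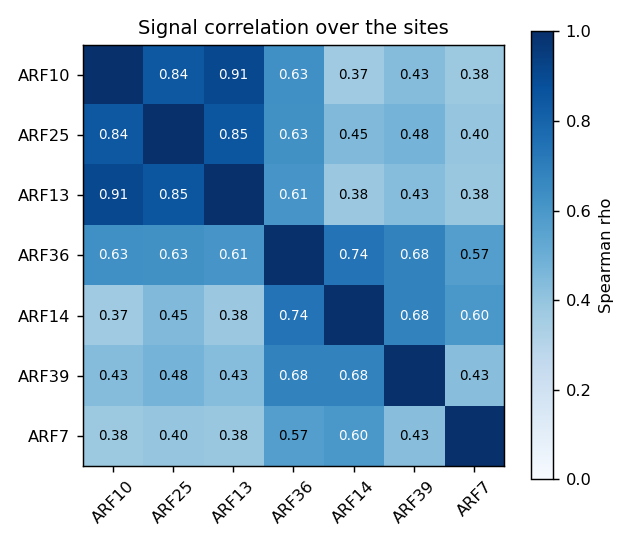
Spearman's rho of the signals of each pair of clade B lists (rows and columns, in the same order) over the 2296 sites, from 0 (white) to 1 (dark blue), with the value in each cell. The ARF10, ARF25 and ARF13 block holds 0.84 to 0.91, the ARF36, ARF14 and ARF39 block 0.68 to 0.74, and ARF7 has its highest value, 0.60, with ARF14.

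The summits of the 7 peaks did not scatter freely within a site. The median distance between the outermost of the 7 summits was 10 bp, and it was at most 20 bp at 1452 sites (63.2%) and at most 50 bp at 2123 sites (92.5%). The most frequent value, 9 bp, was found at 1063 sites (46.3%). Pairs of lists repeated the same distances. ARF10 and ARF25 summits fell on the same base at 1735 sites (75.6%), ARF14 and ARF39 summits on the same base at 1589 (69.2%), ARF10 and ARF36 summits lay 4 bp apart at 1905 (83.0%), ARF10 and ARF14 summits 5 bp apart at 1574 (68.6%), and ARF7 and ARF10 summits 9 bp apart at 1307 (56.9%). The ARF7 summit lay to the right of the ARF10 summit at 670 of the 1307 and to the left at 637, so both orders along the chromosome were about equally common.

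All 21 most frequent pair distances fitted one line. Counted in bp from ARF10 and ARF25, which shared place 0, ARF13 took place 1, ARF36 place 4, ARF14 and ARF39 place 5 and ARF7 place 9. The line could be read from left to right or from right to left, which gave each site an orientation. At 1037 sites (45.2%, 43.1 to 47.2) all 7 summits stood exactly at these places, 515 in one orientation and 522 in the other. At a further 531 sites 6 of 7 did, so that 1568 sites (68.3%) had 6 or 7 summits in place. The subgroups thus took separate stretches of the line, the ARF10 group at 0 to 1, the ARF14 group at 4 to 5 and ARF7 beyond them. GEM places a binding event with the help of short sequences enriched in each list, so the offsets between lists can depend on the sequence chosen for each list as well as on where the reads lie. How much of an offset came from that choice was not tested.

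**Figure D3:**
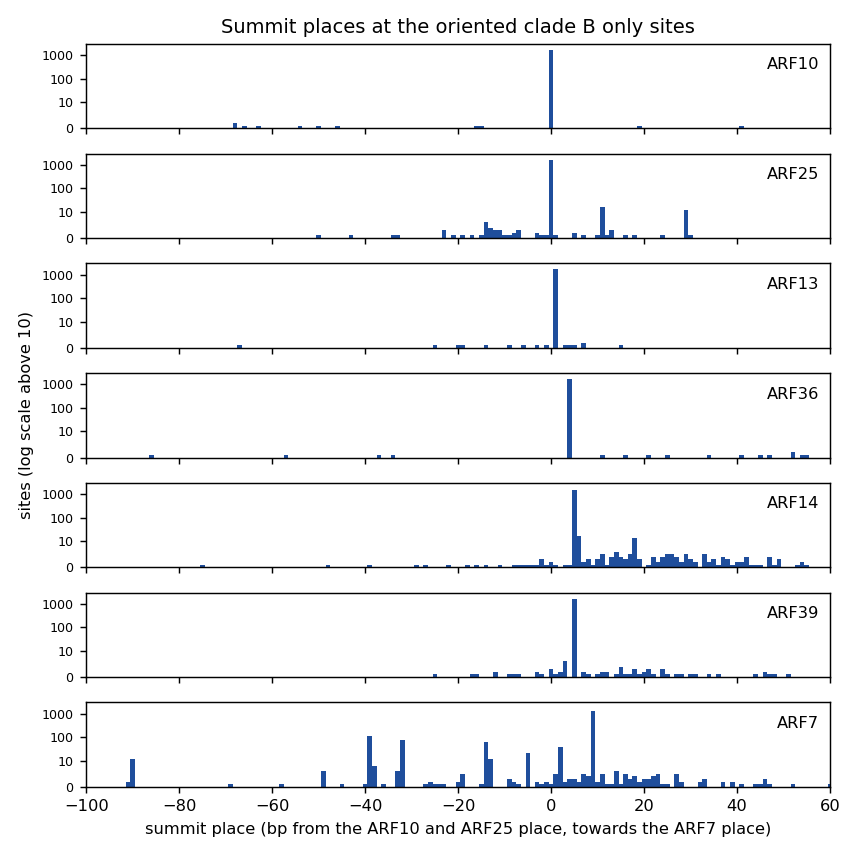
Number of sites (y axis, linear to 10 and logarithmic above) by summit place in bp (x axis, 0 at the ARF10 and ARF25 place and positive towards the ARF7 place) for each clade B ARF, over the 1733 sites with at least 5 summits in place. The sites were kept by these same places, so that every list has 1 dominant place is partly set by that choice. ARF7 has its main place at 9 and further places at −39, −32, −14, −5 and 2.

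The places were read from these sites, so their share is a description, and a lower share in another class is partly set by that choice. Among the 3160 sites of all 7 clade B ARFs with 1 to 6 clade A ARFs, 26.1% had all 7 summits in place, 19.1 points less (16.5 to 21.6). Read afresh in that class, the most frequent distance was the same for 21 of 21 pairs. Among the 542 sites of all 14 ARFs, 2 sites (0.369%) had all 7 in place and 18 (3.32%) had 6 or 7. Of their most frequent distances 19 of 21 were again the same, but each of the 21 distances of the arrangement was less common, at 5.17% to 32.5% of these sites against 48.7% to 83.0%. The 9 bp between ARF7 and ARF10 was found at 56.9% of the 2296 sites, at 41.3% of those with some clade A and at 8.30% of those with all 14.

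Where 6 summits stood in place and 1 did not, the displaced list was ARF7 in 411 of the 531 sites (77.4%, 73.7 to 80.8). ARF14 was displaced at 75 sites, ARF25 at 19, ARF39 at 16, ARF36 at 6, ARF10 at 4 and ARF13 at 0. The displaced ARF7 summits used a few places again and again. They stood at place −39 at 95 sites, at −32 at 63, at −14 at 55, at 2 at 30, at −5 at 20 and at −13 at 12, and elsewhere at 136. Of these 6 places, −39, −32, −14 and 2 were each found on all 10 chromosomes and in both orientations. A list counts as displaced by its strongest peak, so a weaker peak of it can still stand in place. ARF7 had several peaks at 29 of the 95 sites at −39 and at 12 of the 63 at −32. Among the 1037 sites with all 7 in place it had several at 81. At place −39 the median ARF7 rank was 59.9, below the 73.8 of the sites with ARF7 in place. At −14 it was 76.5 and at −5 it was 84.0, so a displaced summit did not always go with a weak ARF7 peak.

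ARF7 also had several peaks in a site more often than the other lists. It did so at 232 sites (10.1%), against 148 for ARF14, 104 for ARF25, 58 for ARF10, 41 for ARF36, 23 for ARF13 and 14 for ARF39. The distance between neighbouring ARF7 peaks was 48 bp for 80 of 233 pairs, 99 bp for 38 and 41 bp for 25. In ARF25 the most frequent distance, 29 bp, was shared by 16 of 106 pairs, and in ARF14 the most frequent was shared by 11 of 151. The ARF7 distances match the displacements, since place −39 is 48 bp and place −32 is 41 bp from the main place. At 74 sites ARF7 had a peak at both 9 and −39, with median signals of 45.95 and 34.8, and the peak at 9 was the stronger at 48 of them. A peak at 9 with another at −90 was found at 33 sites, and the peak at 9 was the stronger at 24 of them. One at 9 with another at −32 was found at 23 sites. There the median signals were 45.6 at 9 and 53.2 at −32, and the peak at 9 was the stronger at 10. In the whole ARF7 list, 236 pairs of neighbouring peaks were 47 or 48 bp apart, and 84 of these pairs lay in the 2296 sites.

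Peak ranks were lower at sites with fewer summits in place in some lists more than in others. At the 728 sites with 5 or fewer summits in place the median rank was 74.7 for ARF10, 62.4 for ARF13 and 83.3 for ARF25, against 91.7, 86.6 and 92.5 at the 1037 sites with all 7 in place. ARF36 had 77.1 against 83.7 and ARF39 43.7 against 52.6. For ARF14 the medians were 84.0 and 84.8, and for ARF7 71.7 and 73.8. The ARF14 group had a higher mean rank than the ARF10 group at 282 of the 728 sites (38.7%, 35.3 to 42.3), but at 30 of the 1037 (2.89%, 2.03 to 4.10). Both groups had lower ranks at the 728 sites, and the balance between them shifted, because ARF10 and ARF13 differed more than the ARF14 group did.

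The 1733 sites with at least 5 summits in place were given an orientation, with "ahead" meaning the side of the ARF7 place and "behind" the other side. The distances used below were chosen after the data were seen. The surroundings of these sites were not alike on both sides. Between 2 and 6 kb behind the site, 300 sites (17.3%, 15.6 to 19.2) had a clade A peak, and over the same stretch ahead 73 sites (4.21%) had one. Within 2 kb the numbers were 69 behind and 10 ahead, and 40 of the 69 had a peak at 700 to 800 bp, a recurring distance given below. From 6 to 10 kb they were 296 behind and 319 ahead, the latter with the recurring distance given below. There the alternatives differed. With equal list sizes 75 of 1532 oriented sites had a clade A peak behind and 23 ahead, and without ARF34 268 of 2315 behind and 228 ahead. With only peaks of −log10 q 10 or more, 90 of 1061 had one behind and 114 ahead. The stretch from 2 to 6 kb held fewer clade A peaks ahead also when weaker peaks, those of −log10 q under 10, were dropped (2.92% ahead, 10.4% behind), with equal list sizes (0.522% and 5.09%) and without the longest list, ARF34 (1.47% and 12.0%). At the 1752 oriented sites of all 7 clade B ARFs with some clade A, the shares from 2 to 6 kb were 12.6% ahead and 18.8% behind. Without ARF34, 46 of 1170 such sites had a clade A peak ahead and 164 behind. The shares were 0.897% and 6.05% with equal list sizes, and at the −log10 q limit of 10 they were 5.53% and 11.9%, so the difference between the sides was found in this class too. Clade B peaks over 2 to 6 kb were found at 195 of the 1733 sites ahead and at 200 behind, a stretch that includes the ARF7 distance given below. They too were fewer ahead at the −log10 q limit of 10 (2.92% ahead, 6.31% behind) and with equal list sizes (1.31% and 3.66%). From 6 to 10 kb clade B peaks were instead more frequent ahead, at 274 sites against 226 behind. The numbers there were 85 and 77 at the −log10 q limit of 10, and 78 and 58 with equal list sizes.

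Particular distances ahead recurred. A clade A peak lay 6700 to 6900 bp ahead of 175 of the 1733 sites (10.1%, 8.77 to 11.6), and at the mirrored distance behind 19 sites (1.10%). ARF34 gave a peak there at 173 sites and ARF16 at 88. Counted over all clade A lists, 62 of the peaks lay within 6830 to 6840 bp, and for ARF34 the number was 34. ARF34 and ARF16 are clade A proteins with the 2 longest lists of the series, 74603 and 42091 peaks. Of the 175 neighbouring sites 161 held no clade B peak at all. A clade A peak 700 to 800 bp behind was found at 40 sites and at the mirrored distance ahead at 0. An ARF7 peak lay 2500 to 2700 bp ahead of 104 sites (6.0%, 4.98 to 7.22) and behind 4 (0.231%), and another 7800 to 8100 bp ahead of 92 sites and behind 5. Of the 104 ARF7 neighbours 83 were peaks of ARF7 alone. All 4 kinds of neighbour were found on 10 chromosomes. Both the ARF7 peak at 2500 to 2700 bp and the clade A peak at 6700 to 6900 bp were found at 15 sites, and either at 264.

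**Figure D4:**
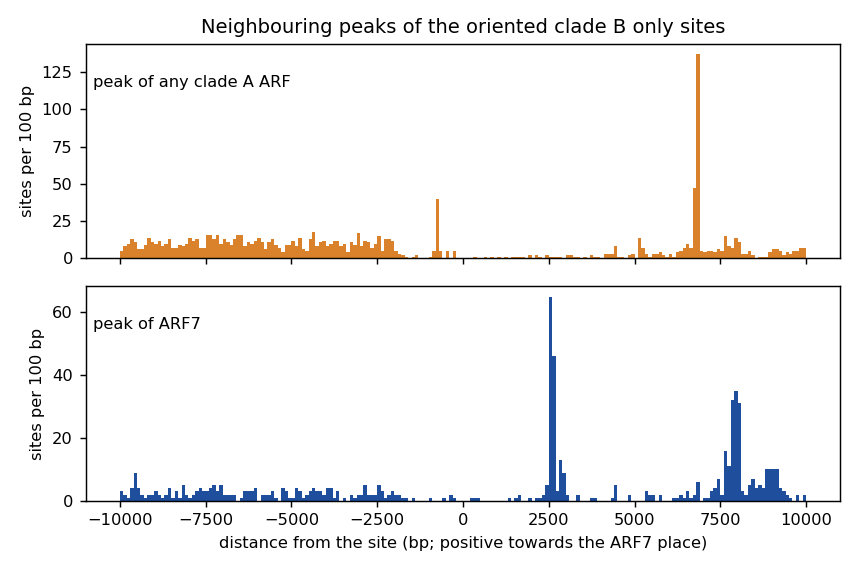
Number of the 1733 oriented sites with a peak of any clade A ARF (top, orange) or of ARF7 (bottom, blue) per 100 bp of distance from the site (x axis, bp, positive towards the ARF7 place). Clade A peaks are sparse ahead of the sites up to the column at 6800 to 6900 bp, which holds 137 sites, and the ARF7 columns stand at 2500 to 2700 bp and around 8000 bp.

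How often these neighbours were found changed with the peak threshold. With only peaks of −log10 q 10 or more, the clade A neighbour at 6700 to 6900 bp was found at 5.66% of oriented sites ahead and 0.848% behind, but the ARF7 neighbour at 2500 to 2700 bp at 0.566% ahead and 0.283% behind. Without ARF34 the clade A neighbour was found at 5.05% ahead and 0.864% behind, and with equal list sizes at 0.587% and 0.261%. At the oriented sites with some clade A, the ARF7 peak at 2500 to 2700 bp was found at 4.05% and the clade A peak at 6700 to 6900 bp at 7.76%. The 1733 sites without clade A exceeded these shares by 1.95 points (0.498 to 3.42) and 2.34 points (0.441 to 4.24). For ARF7 at 7800 to 8100 bp the excess was 0.914 points, with an interval that includes 0 (−0.519 to 2.36). The clade A peak 700 to 800 bp behind was found at 7 of the 1752 sites (0.40%), an excess of 1.91 points (1.17 to 2.75). All these distances were picked where neighbours were most frequent at the 1733 sites. Part of each excess is therefore set by that choice, and the intervals do not allow for it. A repeat annotation of the genome build was not used here and the part of repeats in these distances was not tested. The authors' mapping quality filter restricts reads that map to several places.

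The sites were less frequent near the chromosome ends than other merged sites. Of the 2296 sites, 401 were in the outer 20%, the terminal 10% on either side of each chromosome (a share of 17.5%, 16.0 to 19.1), against 24.0% of all other merged sites, a difference of −6.55 points (−8.07 to −4.93). The sites of all 14 ARFs had 36.3% there and the 1228 sites of all 7 clade A ARFs alone 31.8%, which made differences of −18.9 (−23.3 to −14.6) and −14.3 points (−17.3 to −11.3). In each of these 3 comparisons the share was lower on 10 of 10 chromosomes. The difference from the 3160 sites with some clade A was smaller, at −2.85 points (−4.93 to −0.742). From the 37837 sites with 1 to 5 clade B ARFs and no clade A it was −4.68 points (−6.24 to −3.02). Here too the share was lower on 10 of 10 chromosomes in both comparisons. From the 2311 sites with 6 of the 7 clade B ARFs and no clade A the difference was 0.157 points (−2.03 to 2.35), an interval that includes 0. Of 10 equal bins along the chromosomes the first held 8.67% of the sites and the next 10.8%. Over the chromosomes the density ran from 0.962 sites per Mb on chromosome 7 to 1.26 on chromosome 9.

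**Figure D5:**
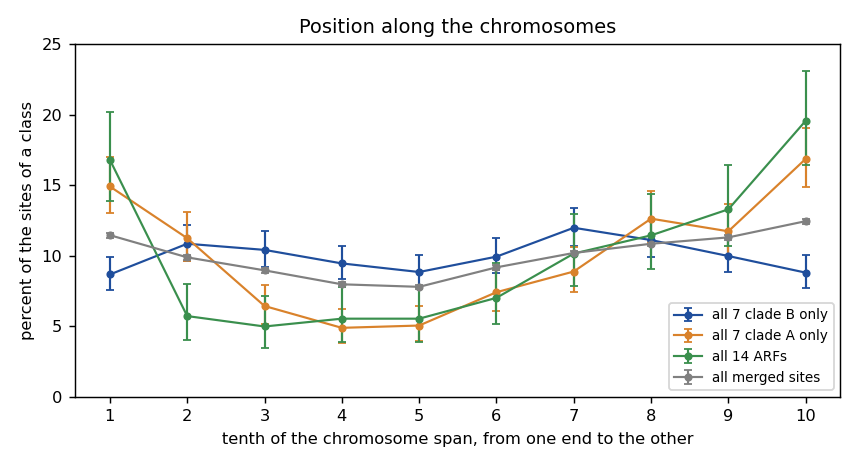
Percent of the sites of a class (y axis) in 10 equal bins of the chromosome span (x axis), summed over the 10 chromosomes, with 95% Wilson intervals as bars. The clade B only sites (blue) have 8.67% in the first bin, while the sites of all 14 ARFs (green) and of clade A alone (orange) are highest in the first and the last bin.

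The nearest clade A peak lay at a median distance of 10775 bp (9789 to 11574) from the centre of a site, and the closest at 223 bp. A clade A peak within 1 kb was found at 107 sites (4.66%, 3.87 to 5.60). This was less often than at the sites with 6 clade B ARFs (6.88%, a difference of −2.22 points, −3.58 to −0.874) or with 1 to 5 (8.31%, −3.65 points, −4.49 to −2.67). Within 10 kb the shares were 48.3% and, for 6 clade B ARFs, 49.9%, with an interval of the difference from −4.47 to 1.30. For 1 to 5 clade B ARFs the share was 52.1%, a difference of −3.74 points (−5.84 to −1.64). ARF34 gave many of the close neighbours. Within 2 kb of the oriented sites it had a peak at 65 of the 69 sites with a clade A peak behind and at 9 of the 10 ahead. With ARF34 left out of the rule, which then gave 3069 sites, 2.57% of those had a clade A peak within 1 kb.

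The median distance to the nearest other such site was 330821 bp, 423 sites (18.4%) had another within 100 kb and 24 (1.05%) within 10 kb. The first 10 kb window with 2 sites was on chromosome 2, with one site from 123403611 to 123403816 and the other from 123411289 to 123411510. The first had a mean rank of 79.7 and the second of 63.7, and both had 6 of 7 summits in place. The widest site, on chromosome 6 from 34675645 to 34676253, held 11 peaks, among them 3 of ARF25 and a pair each of ARF7 and ARF14.

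The rule needs every clade B list and no clade A list, so single lists decided much of the membership. Of the 2311 sites that missed by 1 clade B ARF, 1777 (76.9%) lacked ARF39 and 348 (15.1%) lacked ARF7, while 5 lacked ARF14 and 7 lacked ARF25. Without ARF39 in the rule the number of sites rose from 2296 to 4073. Of the 883 sites that missed by 1 clade A ARF, 773 (87.5%) held ARF34, whose median rank there was 41.7, and without ARF34 in the rule there were 3069 sites. The median of the mean clade B rank was 61.6 with 6 clade B ARFs, 76.6 at the sites themselves and 82.8 with all 7 and 1 clade A ARF. The last value rests on the sites with ARF34 (84.6), since those with ARF4 had 70.5, with ARF27 66.8, with ARF29 65.6 and with ARF16 59.5. In the same order of classes, the medians of the smallest −log10 q of the clade B peaks were 6.67, 8.29 and 11.1. At the sites with 6 clade B ARFs both measures are taken over 6 lists and not 7. The list left out there was mostly ARF39, the one of lowest median rank at the 2296 sites. At 468 of the 2296 sites (20.4%) the weakest of the 7 peaks had a −log10 q below 6, near the limit of 5, and at 847 (36.9%) all 7 had at least 10.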

How the data were processed

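Peak lists of 14 ARFs (1 DAP-seq library each) were used, and the control entered only through peak calling. Per the study's methods, the authors trimmed reads, mapped them to B73 RefGen version 3 with Bowtie2 2.2.8, kept reads of high mapping quality, which under-represents repeats, and called peaks per ARF with GEM against GST-HALO at a false discovery limit of 1e-05. Per the labels, ARF34 was reduced to 15 and ARF27 to 20 M mapped reads, where M is mega. As signal the authors deposited the depth of reads that GEM gave a peak, unscaled between libraries, and as significance the deposited lists hold −log10 p and q-value columns. All peaks had the same width with the summit at the centre.

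Peaks were merged with Python 3.11.15, pandas 2.3.3 and numpy 2.4.6, and bedtools 2.31.1 gave the same 124379 sites. Where a list had several peaks in a site, the one of highest signal was used. Chromosome spans ran from 1 to the last peak end. The measures were tested on simulated lists. The sites named are the 5 of highest and 3 of lowest mean rank, the 3 with the largest rank difference, the widest, and those of the first 10 kb window with most sites. Members and lists were chosen with earlier results of these data known. The arrangement of summits, the oriented distances and their alternatives were chosen after seeing the data. Alternatives were overlap by 100 bp, peaks of −log10 q 10 or more, lists of equal size, counts of stronger peaks, each list left out and other distance limits. No genome of this build was used here, so sequences, motifs and genes were not analysed here.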

Additional observations from a re-analysis of the deposited data

How the results depend on the processing

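Over 216 alternatives of 12 values, 162 stayed within their interval or, for the count, within 1.5 times. Joining peaks at 100 bp overlap changed none beyond that. Most of the alternatives left out 1 list, and some of these could change little. Leaving out ARF18 or ARF35 again gave 2296 sites. With a −log10 q of at least 10 there were 1245 sites in place of 2296. Their median width was 210 bp, 15.6% lay in the outer 20%, the median mean rank was 87.2, the median rho 0.53, the summits were within 20 bp at 73.7% and all in place at 51.2%, a clade A peak lay within 1 kb at 1.45% and at a median of 19558 bp, and the oriented neighbours were found at 5.66% (clade A, 6700 to 6900 bp) and 0.566% (ARF7, 2500 to 2700 bp). With equal list sizes of 7520 peaks, clade A lists included, the same values were 210 bp, 15.0%, 90.2, 0.53, 78.6%, 52.0%, 0.348%, 45580 bp, 0.587% and 0.196%. Other limits gave 38.3% in the outer 40%, 50.5% with summits within 10 bp and 92.5% within 50 bp, 48.3% with a clade A peak within 10 kb, and another such site within 1 kb at 0.0871% and within 100 kb at 18.4%. At sites with exactly 7 peaks 69.7% had summits within 20 bp and 49.6% had all in place. The cause of these changes was not tested.

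Leaving out each list in turn gave 2296 to 4073 sites (4073 without ARF39), a median width of 206 to 220 bp, 16.9% to 18.0% in the outer 20%, a median mean rank of 73.8 to 77.9, a median rho of 0.44 (without ARF36) to 0.65 (without ARF7), summits within 20 bp at 56.2% to 76.1% and all in place at 37.9% to 59.3%, a clade A peak within 1 kb at 2.57% (without ARF34) to 5.28% and at a median of 10462 to 16633 bp (without ARF34), another such site within 10 kb at 1.03% to 2.21% (2.21% without ARF39 and 2.02% without ARF34), the clade A neighbour at 5.05% (without ARF34) to 10.6% and the ARF7 neighbour at 5.69% to 6.22%. The differences in position from the sites of clade A alone and of all 14 kept their sign at the −log10 q limit of 10 (−17.1 and −18.8 points), with equal list sizes (−18.8 and −21.0 points) and without ARF34 (−14.8 and −19.3 points). The planned sequence and gene alternatives were not run, because no genome of this build was used here. No paired analysis was possible because each ARF had 1 library. Apart from ARF34 and ARF27 the labels give no depth per library, which limits how far a missing peak means missing binding.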
